A study of Rattus norvegicus with 48 samples.

Results

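The genes described here encode the proteins of the mitochondrial ribosome. They were taken as every gene of the array whose platform symbol begins with Mrpl or Mrps followed by a digit. This gave 73 genes, 46 named for the large subunit (Mrpl) and 27 for the small subunit (Mrps), of 14217 named genes on the array. They were covered by 97 of 31042 probe sets. In each tissue the probe set with the highest mean stood for a gene, and it was the same probe set in both tissues for 71 of the 73. More than 1 probe set was available for 18 of the genes, and all 73 matched a rat RefSeq gene by gene ID.

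Male rats of the Sprague-Dawley strain, from which cortex of the brain and liver were taken, had received RDX, a nitramine explosive, as 1 oral gel capsule at a dose chosen not to cause seizures. Doses were 3 or 18 mg/kg, and tissue was collected at 0, 4, 24 and 48 h. Each of the 16 combinations of tissue, dose and time had 3 arrays, 48 in all. No vehicle group was analysed here at the later times, so the reference of a later group was the 0 h group of its own arm and tissue. Whether each array stands for a separate animal is not in the labels, so p-values measure only the spread between arrays. In whole tissue, fewer cells of a type and less RNA per cell cannot be told apart.

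The mitochondrial ribosome translates the few mRNAs made from mitochondrial DNA, all of them for subunits of the respiratory chain and ATP synthase. Its RNAs are made in the organelle, but its proteins are encoded in the nucleus, translated in the cytosol and imported, so their transcripts can be read on a poly(A)-primed array. Inherited defects in several of them, among them MRPL3, MRPL12, MRPL44, MRPS2, MRPS7, MRPS16 and MRPS22, cause combined deficiency of the respiratory complexes in people, with brain, heart or liver disease. Promoters of such genes are known for sites of NRF1, of ETS-family factors such as GABP, and of YY1.

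Promoters of 59 of the 73 genes were in the RefSeq set (rat build GRCr8, 300 bases each, 250 before and 50 after the start of the gene). The core letters of these factors, GCGCANGCG for NRF1, CCGGAAG for ETS factors and AAGATGGCG for YY1, were searched on both strands. The NRF1 letters were in 11 of the 59 promoters (18.6%), against 8.05% of 19005 protein-coding promoters and 6.26% of all 27457. ETS letters were in 20 (33.9%, against 11.2% and 9.22%), and YY1 letters in 8 (13.6%, against 2.29% and 1.93%). At least 1 of these was found in 32 promoters (54.2%, against 19.0% of protein-coding and 15.5% of all promoters), and 7 promoters held more than 1 of the 3 motifs. No ETS match overlapped a YY1 match in these promoters. A match describes the letters only. A divergent gene started within 1000 bp of 18 of the 59 members (30.5%), against 10.4% of protein-coding genes. Mrps11 and Mrpl46 were such a pair with each other, their starts 234 bp apart. Mrpl49 started 186 bp from Fau, which encodes a cytosolic ribosomal protein, and Mrpl47 started 244 bp from Ndufb5, a complex I subunit.

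Promoters are shown for 5 members, with every motif match in capitals. Mrpl57 had the smallest adjusted p against 0 h in cortex and Mrpl53 in liver. Mrpl27 and Mrpl45 had the steepest slopes on the RNA measure in cortex in either direction. Mrps18a carries ETS and YY1 letters together, as do Mrpl36 and Mrps27.
Mrpl57, chr15:36086207-36086506, plus strand: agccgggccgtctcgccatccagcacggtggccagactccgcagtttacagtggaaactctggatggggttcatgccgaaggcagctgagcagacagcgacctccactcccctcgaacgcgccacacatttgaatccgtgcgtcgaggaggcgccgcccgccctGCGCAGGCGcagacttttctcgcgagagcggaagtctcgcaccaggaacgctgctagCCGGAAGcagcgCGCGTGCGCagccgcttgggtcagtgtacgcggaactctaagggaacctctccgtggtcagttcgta
Mrpl27, chr10:80092095-80092394, plus strand: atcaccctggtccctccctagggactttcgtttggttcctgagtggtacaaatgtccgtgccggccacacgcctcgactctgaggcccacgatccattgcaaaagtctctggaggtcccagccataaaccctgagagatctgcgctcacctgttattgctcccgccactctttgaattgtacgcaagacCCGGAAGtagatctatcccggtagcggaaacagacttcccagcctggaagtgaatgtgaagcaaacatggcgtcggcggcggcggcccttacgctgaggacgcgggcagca
Mrpl45, chr10:82804789-82805088, plus strand: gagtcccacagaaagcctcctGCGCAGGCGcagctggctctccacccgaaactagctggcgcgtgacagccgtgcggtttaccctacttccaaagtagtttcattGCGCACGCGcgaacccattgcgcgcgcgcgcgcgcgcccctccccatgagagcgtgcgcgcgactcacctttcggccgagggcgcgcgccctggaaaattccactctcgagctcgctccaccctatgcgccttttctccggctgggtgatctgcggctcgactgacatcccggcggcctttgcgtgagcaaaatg
Mrpl53, chr4:117172793-117173092, plus strand: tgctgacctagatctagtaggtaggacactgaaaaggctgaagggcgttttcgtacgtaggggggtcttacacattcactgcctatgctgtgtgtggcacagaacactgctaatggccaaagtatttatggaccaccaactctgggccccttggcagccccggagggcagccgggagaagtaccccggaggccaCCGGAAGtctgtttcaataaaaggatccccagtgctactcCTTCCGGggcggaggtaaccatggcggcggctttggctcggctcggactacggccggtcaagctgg
Mrps18a, chr9:22367331-22367630, minus strand: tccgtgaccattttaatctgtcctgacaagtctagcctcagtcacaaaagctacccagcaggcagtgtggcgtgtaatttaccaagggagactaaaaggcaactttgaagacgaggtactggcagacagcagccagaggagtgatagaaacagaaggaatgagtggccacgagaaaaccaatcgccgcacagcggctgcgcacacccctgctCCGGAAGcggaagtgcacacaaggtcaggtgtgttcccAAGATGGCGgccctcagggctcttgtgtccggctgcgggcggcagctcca
The Mrpl57 promoter holds 2 NRF1 matches and 1 ETS match, Mrpl45 holds 2 NRF1 matches, Mrpl53 holds 2 ETS matches and Mrpl27 holds 1. In Mrps18a the YY1 match begins at the first base of the gene.

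Several arrays differed from the rest in ways that bear on what follows. RNA condition was read as the actin gap, the signal of the actin 3' control minus that of its 5' control in log2 units, which is larger where the 5' end of the transcript gives less signal. In cortex the gap ran from 1.65 to 4.61 (median 2.61) and exceeded 3 in 10 of 24 arrays. The mean of 9 hepatocyte markers exceeded 8 in 6 cortex arrays (8.10 to 10.71), against 5.91 to 7.69 in the other 18 and 10.82 to 13.18 in liver. In liver, replicate 2 of the 3 mg/kg 0 h group and replicate 1 of the 18 mg/kg 4 h group had compressed values, with an SD over probe sets of 1.49 and 1.38 against 1.82 to 2.08 in the other 22, and the latter had a gap of 0.62. These 8 arrays are called the arrays that stand apart, and results are given with and without them. Mean levels of 5 neuron markers separated the tissues (10.13 to 10.78 in cortex, 4.81 to 5.76 in liver).

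In cortex after 3 mg/kg the members lay higher at the later times, without a single one passing the test. The mean over the 73 genes was 9.43, 9.35 and 9.44 on the log2 scale in the 3 arrays of 0 h. It was 9.41, 9.48 and 9.52 at 4 h, 9.57, 9.62 and 9.64 at 24 h, and 9.55, 9.69 and 9.57 at 48 h. All 24 h and 48 h arrays were above all 0 h arrays, while the 4 h arrays overlapped them. The median change of the members was 0.04 at 4 h, 0.17 at 24 h and 0.15 at 48 h, against -0.03, -0.01 and -0.02 over all probe sets. At 24 h 58 of 73 members were above 0 and at 48 h 61 were, against 47.3% and 46.6% of all probe sets. Their arrays did not overlap those of 0 h, on the higher side, for 33 members at 24 h and 31 at 48 h (10.5% and 9.86% of all probe sets), and on the lower side for 1 each time (9.14% and 10.8%). By limma with Benjamini-Hochberg adjustment over all probe sets, 0 members passed at any of these times. The shares of all probe sets that passed were 0%, 0.0741% and 0%. At an unadjusted limma p under 0.05, 30 were higher and 1 lower at 24 h, and 28 and 1 at 48 h, where 8.05% and 7.53% of all probe sets were higher and 6.36% and 5.44% lower. At 4 h these counts were 5 and 1 (6.27% and 6.31% of all probe sets).

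Related gene sets lay higher in the same arrays, also without overlap at 24 and 48 h. The mean of nuclear-encoded oxidative phosphorylation subunits was 10.95 to 11.17 at 0 h. It was 11.35 to 11.39 at 24 h and 11.27 to 11.40 at 48 h. For cytosolic ribosomal proteins the ranges were 10.85 to 11.08, 11.19 to 11.28 and 11.13 to 11.26 at these times. Markers of other cells moved too. The mean of 5 striatum markers was 9.65, 9.64 and 8.17 at 0 h and 10.45, 10.45 and 10.28 at 24 h, and that of 3 choroid plexus markers 5.28 to 5.64 and 5.67 to 6.07, both without overlap. At 48 h these overlapped 0 h, while the mean of 4 astrocyte markers was lower, with 9.83, 9.71 and 9.84 at 0 h and 9.59, 9.51 and 9.66 at 48 h. Their part in the result was not tested.

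Mrpl57, a small protein of the large subunit, came nearest to the threshold. Its 0 h arrays read 9.70, 9.46 and 9.56, the 24 h arrays 10.02, 10.02 and 10.12, and the 48 h arrays 9.99, 10.21 and 10.05. No later array was as low as the highest 0 h array. The change was 0.48 ± 0.09 (SE) at 24 h, with a limma adjusted p of 0.059, and 0.51 ± 0.09 at 48 h, with 0.17. A second probe set of Mrpl57, with a lower mean, gave 0.63 at 48 h. Mrpl52, a protein of the central protuberance of the large subunit, read 10.00, 9.35 and 9.74 at 0 h and 10.55, 10.30 and 10.15 at 24 h. Its groups did not overlap, and the change was 0.63 ± 0.15 (limma adjusted p = 0.092). Mrps28 of the small subunit read 8.82, 8.73 and 8.75 at 0 h and 9.04, 9.13 and 9.08 at 24 h, a difference of 0.32 ± 0.08 (adjusted p = 0.12). On the lower side stood Mrpl21 (-0.33 ± 0.13 at 24 h, adjusted p = 0.27), whose 24 h arrays were all below those of 0 h, and Mrpl45 (-0.44 ± 0.17 at 48 h, adjusted p = 0.33), whose arrays overlapped. Mrpl45 binds the inner membrane near the exit of the peptide tunnel. At 4 h the members with the smallest p in each direction were Mrpl34 (0.35 ± 0.12) and Mrpl48 (-0.24 ± 0.09), both with an adjusted p of 0.36.

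In the 18 mg/kg arm of the cortex most members lay lower at 48 h, again without 1 passing. The mean over the members was 9.58, 9.57 and 9.44 at 0 h, 9.49, 9.47 and 9.47 at 4 h, 9.56, 9.40 and 9.39 at 24 h, and 9.33, 9.45 and 9.34 at 48 h. At every later time the arrays overlapped those of 0 h, since replicate 3 of 0 h was low. The group mean of oxidative phosphorylation subunits was also lower at 48 h, 11.02 against 11.25 at 0 h. That of cytosolic ribosomal proteins was 10.98 against 11.11, and the arrays overlapped for both sets. Median changes were -0.03, -0.06 and -0.12 at 4, 24 and 48 h, against -0.01, 0.00 and -0.01 over all probe sets. At 48 h 53 of 73 members were below 0 and 20 above, where 48.1% of all probe sets were above, and 21 were lower and 1 higher at an unadjusted limma p under 0.05, where 8.79% of all probe sets were lower and 7.8% higher. Non-overlapping arrays were found for 17 members on the lower side (7.99% of all probe sets) and 1 on the higher (6.8%). After adjustment 0 members and 0% of all probe sets passed at each of the 3 times. At 4 h 2 members were higher and 3 lower at the unadjusted p (6.02% and 5% of all probe sets), and at 24 h 2 and 5 (3.6% and 2.38%). Leaving out 1 array changed the call at 48 h. Without replicate 3 of 0 h, 7 members passed as lower (1.97% of all probe sets passed), and without replicate 2 of 48 h, 8 did (6.91%).

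The smallest p at 48 h after 18 mg/kg again belonged to Mrpl57, with 10.04, 10.11 and 9.88 at 0 h and 9.55, 9.55 and 9.72 at 48 h. The groups did not overlap, and the change was -0.40 ± 0.09 (limma adjusted p = 0.095). Its second probe set gave -0.93. Mrps34 of the small subunit read 9.71, 9.62 and 9.52 at 0 h and 9.13, 9.16 and 9.20 at 48 h (-0.45 ± 0.11, adjusted p = 0.098). Mrps11, the small-subunit gene that starts beside Mrpl46, read 8.92, 8.83 and 8.15 at 0 h and 7.68, 8.11 and 7.56 at 48 h (-0.85 ± 0.22, adjusted p = 0.10). On the higher side was Mrpl10, a stalk protein, with 0.33 ± 0.14 (adjusted p = 0.25). At 24 h Mrps28 had the smallest p (-0.26 ± 0.08, adjusted p = 0.82) and at 4 h Mrps33 (-0.27 ± 0.10, adjusted p = 0.45).

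**Figure D1:**
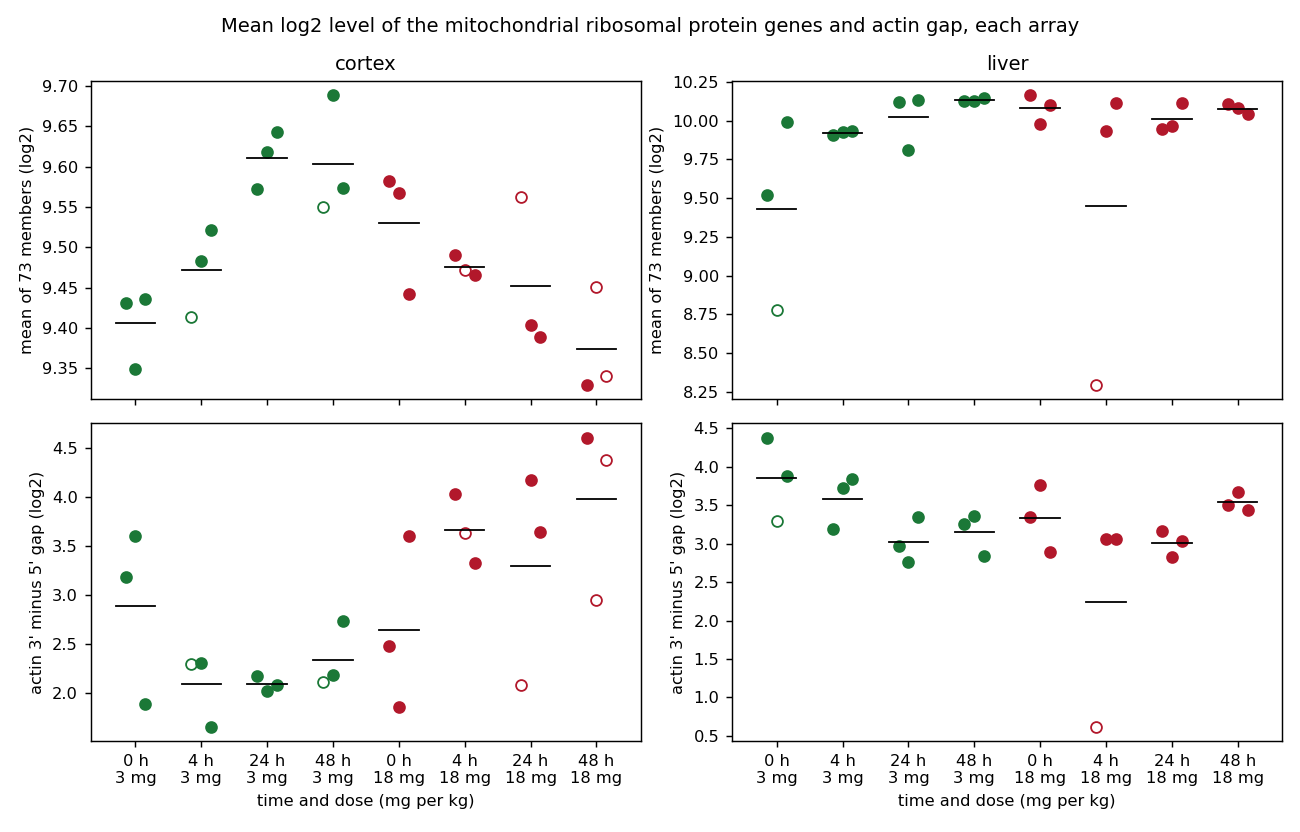
Mean log2 level of the 73 members (top) and actin gap in log2 units (bottom) for each array, by time and dose, in cortex (left) and liver (right). Green points are the 3 mg/kg arm, red points the 18 mg/kg arm, open points the arrays that stand apart and black lines group means; the cortex means are between 9.33 and 9.69, and 1 liver array of the 18 mg/kg 4 h group lies at 8.29 with a gap of 0.62.

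The actin gap differed between these groups too. Cortex groups of the lower dose had gaps of 2.89 ± 0.90 (SD, n = 3), 2.09 ± 0.37, 2.09 ± 0.08 and 2.34 ± 0.34 in order of time. Those of the higher dose had 2.65 ± 0.89, 3.66 ± 0.35, 3.30 ± 1.09 and 3.98 ± 0.90. The later means were below that of 0 h after the lower dose and above it after the higher. With the gap as a covariate, the median changes after 3 mg/kg were -0.00, 0.15 and 0.14 at 4, 24 and 48 h and those after 18 mg/kg were 0.02, -0.02 and -0.08, with 0 members passing in each (0.0483% of all probe sets passed at 24 h after 3 mg/kg and 0% elsewhere). Without the arrays that stand apart the medians were 0.08, 0.17 and 0.19 after 3 mg/kg and -0.02, -0.10 and -0.16 after 18 mg/kg, again with 0 passing (0.00322%, 0.106% and 0% of all probe sets after 3 mg/kg, and 0%, 0.0161% and 0.0322% after 18 mg/kg). Of the 48 h arrays of the 18 mg/kg arm, 2 were among those left out, with hepatocyte marker means of 10.30 and 10.71 against 6.11 in the third one. The part of these markers in the result was not tested. The neuron marker mean in the 18 mg/kg arm was 10.57, 10.47 and 10.18 at 0 h and 10.25, 10.39 and 10.13 at 48 h, with overlap. The astrocyte marker mean of the same arrays was 9.59, 9.59 and 9.78 at 0 h and 9.80, 9.82 and 9.95 at 48 h, higher without overlap, and its part was not tested either.

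Whether the 2 doses differed in their time course was tested for each gene with a moderated F test over the 3 later times. In cortex the change after 18 mg/kg minus that after 3 mg/kg had a median over members of -0.08, -0.25 and -0.30 at 4, 24 and 48 h, with 58 of 73 below 0 at 48 h. By this limma F test 0 members passed, against 0.00322% of all probe sets, and 33 of 73 had an unadjusted p under 0.05 (16.7% of all probe sets). Mrpl57 had the smallest, with differences of -0.30, -0.55 and -0.91 ± 0.13 (SE) and an adjusted p of 0.13. Mrps28 had -0.58 ± 0.12 at 48 h with the same adjusted p. The count rose to 12, 10, 7 or 4 members when 1 array was left out, respectively replicate 3 of 18 mg/kg 0 h, replicate 1 of 18 mg/kg 24 h, replicate 2 of 18 mg/kg 48 h or replicate 3 of 3 mg/kg 0 h (1.24%, 1.42%, 3.23% and 0.715% of all probe sets). The 0 h groups of both arms were also compared in the same fit, a comparison chosen after the values were seen. Members in the 18 mg/kg arm were a median of 0.10 higher at 0 h (54 of 73 above 0, 0 passing in limma and 0% of all probe sets), against -0.01 over all probe sets, and 9 were higher and 0 lower at an unadjusted p under 0.05 (4.35% in either direction).

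**Figure D2:**
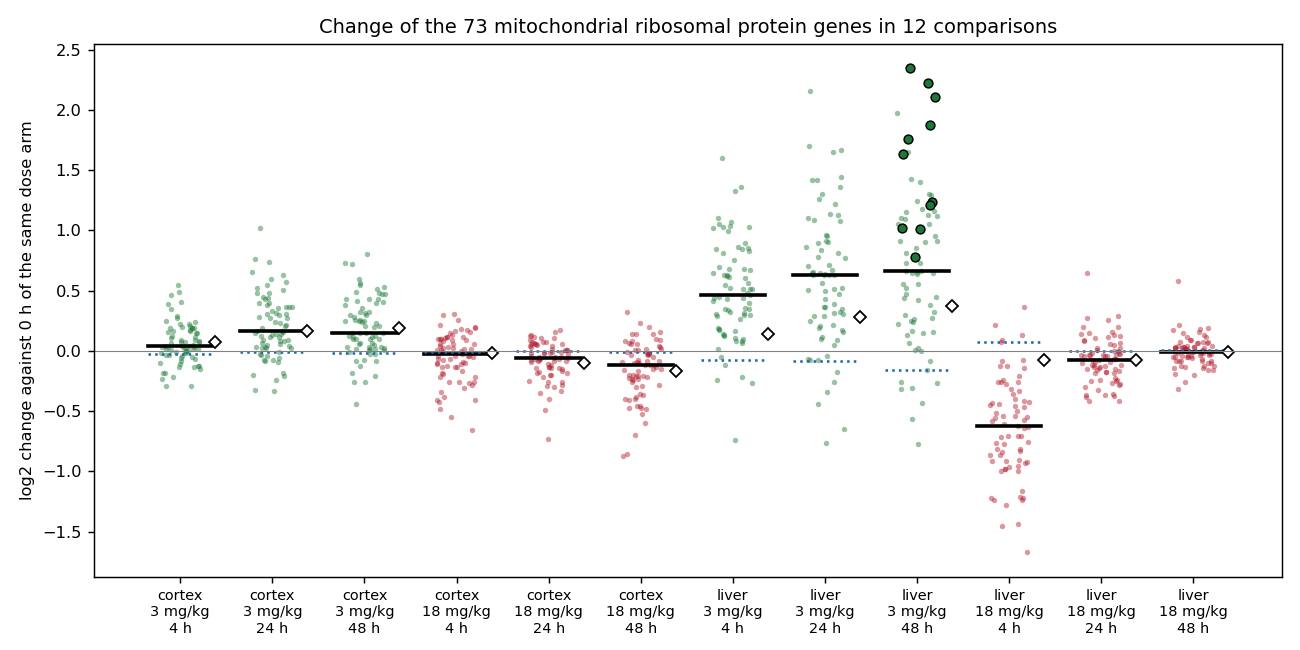
Log2 change of each of the 73 members against 0 h of its own dose arm in 12 comparisons (points; larger outlined points passed limma at an adjusted p under 0.05), green after 3 mg/kg and red after 18 mg/kg. Black lines are member medians, dotted blue lines the medians of all probe sets, and open diamonds the member medians without the arrays that stand apart; outlined points appear only for liver at 48 h after 3 mg/kg, where 11 members passed.

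Members did not share 1 relation to the gap. Within the 8 cortex groups, 24 of 73 members had a slope on the gap that passed in limma, 20 lower and 4 higher with a larger gap, against 26.2% of all probe sets (13.4% lower, 12.8% higher). The median slope was -0.04 log2 per unit of gap, against 0.01 over all probe sets. The steepest was Mrpl27, a central protuberance protein, at -0.45 ± 0.06 (SE, limma adjusted p = 1.33e-05). Its arrays read 10.97 and 10.81 at gaps of 2.48 and 1.86 in the 18 mg/kg 0 h group, and 10.26 at a gap of 3.60. Mrps11 had -0.38 ± 0.04, Mrpl35 -0.39 ± 0.06, Mrps25 -0.35 ± 0.06, Mrpl50 -0.37 ± 0.06 and Mrpl20 -0.29 ± 0.05. All 6 also passed without the arrays that stand apart, at -0.40, -0.43, -0.42, -0.40, -0.35 and -0.38 in the same order.

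The 4 members that were higher with a larger gap were Mrpl45 (0.19 ± 0.06), Mrpl21 (0.18 ± 0.04), Mrpl12 (0.15 ± 0.05) and Mrps26 (0.15 ± 0.04). Mrpl12 is a stalk protein that also binds the mitochondrial RNA polymerase. In the 3 mg/kg 0 h group Mrpl12 read 10.37, 10.45 and 9.95 at gaps of 3.18, 3.60 and 1.88, and Mrpl45 read 9.12, 9.22 and 8.62. The array with the smallest gap was the lowest for both. Without the arrays that stand apart 10 members passed, all lower (14.1% of all probe sets, 8.12% lower), and the slopes of those 4 were 0.24, 0.16, 0.21 and 0.11 with adjusted p from 0.056 to 0.30. Leaving out replicate 1 of 18 mg/kg 24 h alone left 12 members, 11 of them lower (18.8%). Mrpl57 had a slope of -0.03 on its brighter probe set and -0.44 on the other. Of 18 members with several probe sets, 9 had cortex slopes of opposite sign among them. Members that were lower with the gap had a median genomic length of 5764 bp (16 with a promoter entry), the 3 that were higher 4504 bp and the 40 not called 7356 bp.

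**Figure D3:**
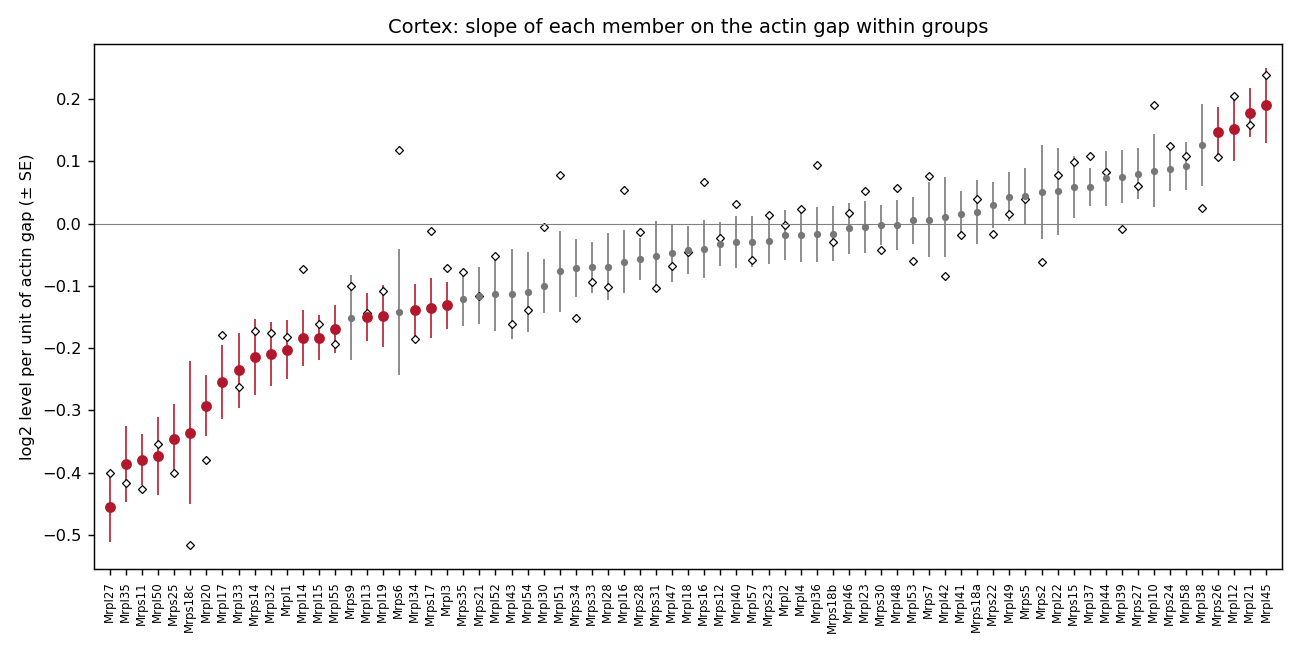
Slope of each member on the actin gap within the 8 cortex groups, in log2 level per unit of gap with its SE, in order of slope; red points passed limma at an adjusted p under 0.05 and grey points did not. Open diamonds are slopes without the arrays that stand apart; the slopes run from -0.45 for Mrpl27 to 0.19 for Mrpl45.

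Genes that work with the mitochondrial ribosome were described from lists, and in cortex 0 of their measured members passed in any contrast against 0 h. Their slopes on the gap ran both ways, where 12.8% of all probe sets were higher and 13.4% lower. Of 26 measured assembly and RNA factors 9 were higher and 4 lower with the gap, and of 16 aminoacyl-tRNA synthetases and partners 4 and 1. Of 10 translation factors 1 was higher and 2 lower, and of 9 genes of mtDNA maintenance and transcription 1 and 1. Of 9 regulators 2 were higher and 1 lower. Lrpprc, which stabilises mitochondrial mRNAs, had 0.37 ± 0.07 (limma adjusted p = 0.00083), and Ppargc1b, a coactivator of mitochondrial gene programmes, 0.50 ± 0.10 (adjusted p = 0.00078). Mrrf, the ribosome recycling factor, had -0.38 ± 0.09 and Ssbp1, which coats single-stranded mtDNA, -0.34 ± 0.07. Without the arrays that stand apart Lrpprc (0.37) and Ssbp1 (-0.45) still passed. Ppargc1b (0.42, limma adjusted p = 0.061) and Mrrf (-0.20, adjusted p = 0.16) did not. Nuclear-encoded subunits of oxidative phosphorylation had a median slope of -0.12 (39 of 80 lower and 1 higher) and cytosolic ribosomal proteins of -0.10 (20 of 48 lower and 1 higher). When the arrays that stand apart were left out, 1 assembly or RNA factor was higher and 1 lower, and 0 synthetases passed. In each of the lists of translation factors, mtDNA genes and regulators 0 were higher and 1 lower. Then 19 oxidative phosphorylation genes were lower and 2 higher, and 7 cytosolic ribosomal genes were lower and 1 higher (14.1% of all probe sets passed). The difference between these lists and the members was not tested.

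In liver most members lay higher after 3 mg/kg at every later time, and 11 rose at 48 h. The mean over the members was 9.52, 8.78 and 9.99 in the 0 h arrays, of which the lowest stands apart. It was 9.90, 9.93 and 9.93 at 4 h, 10.12, 9.81 and 10.13 at 24 h, and 10.13, 10.13 and 10.15 at 48 h. The 48 h arrays were all above those of 0 h, and the 3 arrays of 0 h spanned more than all 9 later ones. Median changes were 0.46, 0.63 and 0.66, against -0.08, -0.09 and -0.16 over all probe sets. Of the 73 members 67, 63 and 64 were above 0, against 43.0%, 42.0% and 39.5% of all probe sets. Without the arrays that stand apart, which leaves 2 arrays at 0 h, the medians were 0.14, 0.28 and 0.37. By limma 0 members passed at 4 h and at 24 h (0.0226% and 0% of all probe sets), with 13 higher and 0 lower, and 29 higher and 1 lower, at an unadjusted limma p under 0.05. For all probe sets these shares were 7.68% and 6.5% at 4 h and 10.2% and 9.77% at 24 h. At 48 h 11 members rose and 0 fell, where 9.34% of all probe sets passed and 6% were higher. At an unadjusted limma p under 0.05 34 were higher and 1 lower (15.8% and 16.2%). Members were read on their brightest probe set, while the shares of all probe sets include dim ones. With probe sets below the median mean dropped, 17 members passed in limma, where 18.6% of the remaining probe sets did. Arrays of 48 h and 0 h did not overlap for 41 members on the higher side (16.9% of all probe sets) and 2 on the lower (19.3%).

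Other measures of these arrays were higher at 48 h without overlap too. The mean of oxidative phosphorylation subunits was 9.77 to 10.99 at 0 h and 11.11 to 11.16 at 48 h. For cytosolic ribosomal proteins it was 9.78 to 11.05 and 11.18 to 11.23. The hepatocyte marker mean was 12.73, 11.95 and 12.87 at 0 h and 13.08, 13.00 and 13.18 at 48 h, and the mean of 5 macrophage markers 7.79 to 9.02 and 9.30 to 9.47. The SD over probe sets was 1.82, 1.49 and 1.94 at 0 h and 2.03, 2.02 and 2.08 at 48 h. Their part in the result was not tested. After quantile normalisation, which gives every array the same distribution, the member medians were 0.17, 0.24 and 0.20 at 4, 24 and 48 h. With the actin gap as a covariate they were 0.62, 1.07 and 1.10, on a gap slope that rested on 1 array (replicate 1 of 18 mg/kg 4 h).

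The 11 members that rose at 48 h were 7 of the large subunit and 4 of the small. Mrpl53, a stalk protein, read 9.17, 8.36 and 10.44 at 0 h and 10.94, 10.88 and 11.05 at 48 h. Its groups did not overlap, and the change was 1.64 ± 0.35 (SE), a 3.11-fold difference, with a limma adjusted p of 0.024. Mrpl55 read 8.07, 7.09 and 9.18 at 0 h and 9.83, 9.82 and 9.94 at 48 h (1.75 ± 0.45, adjusted p = 0.027). Mrps7, a protein of the head of the small subunit, read 8.38, 7.03 and 9.02 at 0 h and 10.07, 9.72 and 10.26 at 48 h (1.87 ± 0.48, adjusted p = 0.027). In all 3 genes the 0 h arrays kept the order replicate 2, replicate 1, replicate 3 from lowest to highest. Mrpl20 of the large subunit read 8.57, 6.15 and 9.97 at 0 h and 10.59, 10.47 and 10.67 at 48 h, the largest of these changes at 2.35 ± 0.64 (adjusted p = 0.033). The others were Mrpl30 (2.22), Mrpl42 (2.11), Mrpl40 (1.23), Mrps17 (1.21), Mrps27 (1.02), Mrpl39 (1.01) and Mrps6 (0.78), with adjusted p from 0.029 to 0.048. Mrpl39 was the only one of the 11 whose arrays overlapped those of 0 h.

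**Figure D4:**
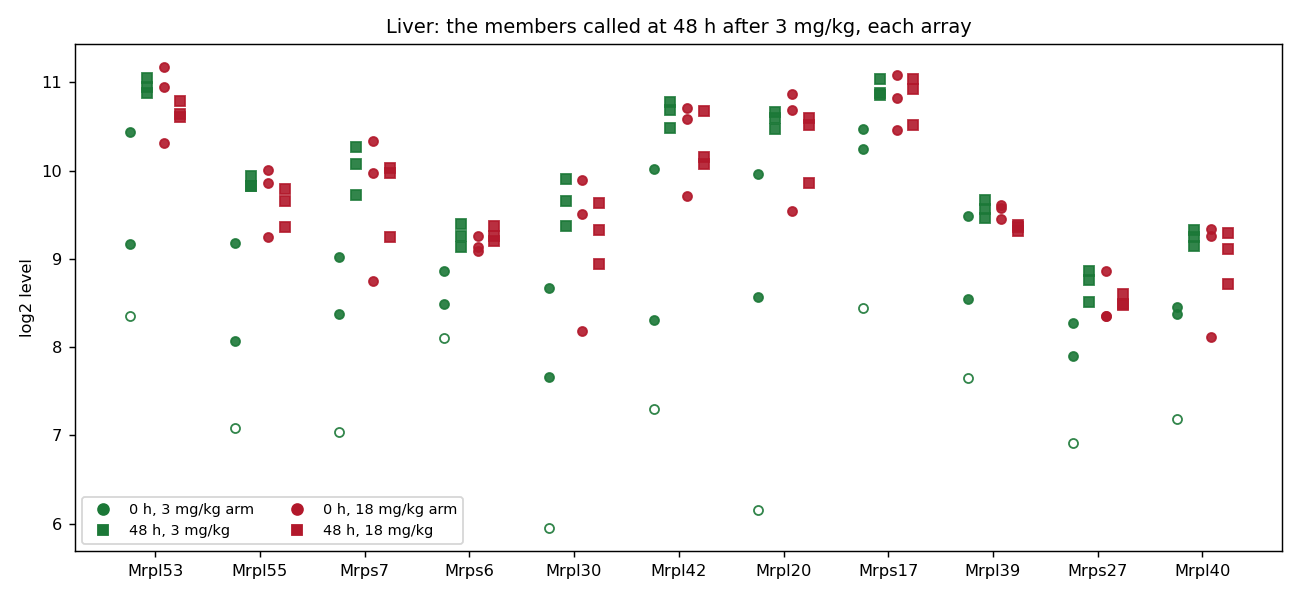
Log2 level in each liver array of the 11 members that passed at 48 h after 3 mg/kg, at 0 h (circles) and 48 h (squares) of the 3 mg/kg arm (green) and the 18 mg/kg arm (red), in order of p. The open circle is the 0 h array that stands apart; for Mrpl20 it reads 6.15, the other 0 h circles of the 3 mg/kg arm 8.57 and 9.97, and the 0 h circles of the 18 mg/kg arm 10.69, 9.54 and 10.87.

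The call rested on which arrays were used. Without the arrays that stand apart 6 members passed at 48 h, 4 of them among the 11 (Mrpl53 1.15, Mrpl55 1.24, Mrpl42 1.49 and Mrpl20 1.31) together with Mrps18b (1.04) and Mrps21 (0.65), where 4.42% of all probe sets passed, and 0 passed at 4 and 24 h (0.0258% and 0%). Leaving out only replicate 2 of 0 h left 0 members (0% of all probe sets), leaving out replicate 1 of 0 h left 4 (4.68%), and leaving out any 1 array of 48 h left 0. Without replicate 3 of 0 h, 34 passed at 48 h (25%), 24 at 24 h (12.2%) and 11 at 4 h (5.83%). The gap averaged 3.85 ± 0.55 (SD, n = 3) at 0 h and 3.58, 3.02 and 3.15 later. With it as a covariate, 10, 55 and 54 members passed as higher at 4, 24 and 48 h (5.71%, 31.5% and 46.5% of all probe sets). The gap slope in that fit rested on 1 array, replicate 1 of 18 mg/kg 4 h, as described below. With the 0 h groups of both arms pooled, 0 members passed and the median at 48 h was 0.32. The 0 h arrays of the 18 mg/kg arm had member means of 10.16, 9.98 and 10.10, a median of 0.67 above those of the 3 mg/kg arm, or 0.32 without the arrays that stand apart. In that comparison of the arms, chosen after the values were seen, 0 members and 0% of all probe sets passed, and 34 were higher and 1 lower at an unadjusted limma p under 0.05 (21.4% in either direction).

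Companion genes of the mitochondrial ribosome were read in the same contrast, where 6% of all probe sets were higher. Of 5 measured ribosomal proteins with other symbols Ptcd3 rose (1.29), a small-subunit protein. Of 26 assembly and RNA factors Gtpbp10 (1.17) and Slirp (1.66) rose. Of 9 genes of mtDNA maintenance and transcription, the transcription factors Tfam (2.05) and Tfb2m (1.68) did. No gene passed among 10 translation factors or 16 aminoacyl-tRNA synthetases and partners. Of 9 regulators Ppargc1b fell by 1.04. Of 80 oxidative phosphorylation genes 7 rose, Cox7b by 1.96 and Sdha by 1.88, and of 48 cytosolic ribosomal protein genes 3 rose, where 6% of all probe sets were higher. Among these companions Tfam, Rpl27, Sdha, Ndufb4, Cox7b and Cox5b also passed without the arrays that stand apart. No gene of the lists passed in any other liver contrast. On the lower side in the 3 mg/kg arm were Mrps2 (-0.77 ± 0.37 at 48 h, limma adjusted p = 0.16) and Mrpl38 (-0.56 ± 0.22, adjusted p = 0.098), neither of which passed.

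After 18 mg/kg 0 members passed in liver (0.0258%, 0% and 0.0966% of all probe sets at 4, 24 and 48 h). The mean over the members was 8.29, 9.94 and 10.12 at 4 h, 9.95, 9.97 and 10.11 at 24 h, and 10.11, 10.08 and 10.04 at 48 h. Only replicate 1 of 4 h lay outside the range of the other arrays of this arm. The median change at 4 h was -0.62, with 68 of 73 below 0 and 5 above (58.1% of all probe sets above), and 26 lower and 0 higher at an unadjusted limma p under 0.05 (5.11% and 6.29%). Without that array the median was -0.08. At 24 and 48 h the medians were -0.08 and -0.01 and 0 members had an unadjusted p under 0.05 (1.52% of all probe sets higher and 0.902% lower at 24 h, 0.847% and 0.818% at 48 h). Members with the smallest p were Mrpl34 at 4 h (-1.28 ± 0.43, limma adjusted p = 0.44; -0.45 without the array), Mrpl45 at 24 h (-0.28 ± 0.23) and Mrpl50 at 48 h (0.58 ± 0.67). When the time courses of both doses were compared in liver by the limma F test, 0 members passed (0.00966% of all probe sets) and 6 had an unadjusted p under 0.05 (9.54%). Mrps6 and Mrpl53 had the smallest adjusted p, 0.48 each. Without replicate 3 of 3 mg/kg 0 h 1 member passed (0.428%).

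The liver slope on the gap within groups rested on 1 array. Over all arrays 56 members were higher with a larger gap and 0 lower in limma (41.9% of all probe sets passed, 17.8% higher and 24% lower), with a median of 0.63 and Mrpl27 at 1.22 ± 0.15. Without replicate 1 of 18 mg/kg 4 h, the array with a gap of 0.62, 0 members and 0% of all probe sets passed. Without both liver arrays that stand apart the median was -0.09 and 43 of 73 were below 0.

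Members listed for a part in inherited disease or for their place in the ribosome were also read. In cortex Mrps30 stayed between 9.75 and 9.98 over all 24 arrays, the narrowest range of those named here, with changes from -0.02 to 0.04. Mrps18a, which like Mrps30 sits in the large subunit in spite of its symbol, ran from 9.59 to 10.22. Mrpl3 had cortex changes from -0.05 to 0.12 and a slope of -0.13 ± 0.04 on the gap (limma adjusted p = 0.014). For Mrpl44, Mrps2, Mrps12, Mrps16 and Mrps22 the cortex changes lay between -0.23 and 0.31 with adjusted p of 0.22 or more. In liver at 48 h after 3 mg/kg Mrpl3 had 1.05, Mrps30 1.30, Mrps22 1.12, Mrps16 0.73, Mrpl44 0.66, Mrps12 0.66 and Mrps18a 0.52, none past the threshold, while Mrpl12 had -0.15 and Mrpl45 0.23.

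Over all arrays, a smaller share of the members than of all probe sets differed between the tissues at 0 h. In limma 44 of 73 passed (60.3%), 32 lower and 12 higher in cortex than in liver, against 77.4% of all probe sets (46.5% lower, 30.8% higher). The median difference was -0.36, against -0.26 over all probe sets and -0.12 over 14217 genes with 1 probe set each. The mean log2 level of Mrpl16, a large-subunit protein, was 9.18 ± 0.09 (SD, n = 6) in cortex and 10.93 ± 0.21 in liver, a difference of -1.75 ± 0.19 (SE), or 3.36-fold. Its ranges did not overlap. Mrpl1 differed by -1.65, Mrps34 by -1.61, Mrpl38 by -0.95, Mrps28 by -1.23 and Mrps16 by -1.22, each with ranges apart. Mrpl12 differed by -1.27.

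On the other side Mrps6 read 9.96 ± 0.32 in cortex and 8.82 ± 0.44 in liver, 1.14 ± 0.16 higher and without overlap. Mrpl3 was 1.08 higher, Mrpl48 0.83, Mrpl49 0.74 and Mrps31 0.68. Mrpl20 (1.24) and Mrps25 (1.06) were also higher in cortex, by 0.72 and 0.69 without the arrays that stand apart. Ranges did not overlap for 20 members, 5 higher and 15 lower in cortex (53% of all probe sets in either direction). Without the arrays that stand apart 11 of the 73 were higher and 45 lower, with a median of -0.50. That share was close to the 78.1% of all probe sets that passed, so the smaller share of members was not seen there. In this comparison oxidative phosphorylation genes had a median of 0.44 and cytosolic ribosomal proteins 0.37, higher in cortex, and the translation factors -0.61. These medians were 0.25, 0.22 and -0.59 without the arrays that stand apart. For 6 of the 18 members with several probe sets the tissue difference had opposite signs among them; the brighter probe set of Mrps18c in cortex gave 0.20 and the one brighter in liver -1.34.

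**Figure D5:**
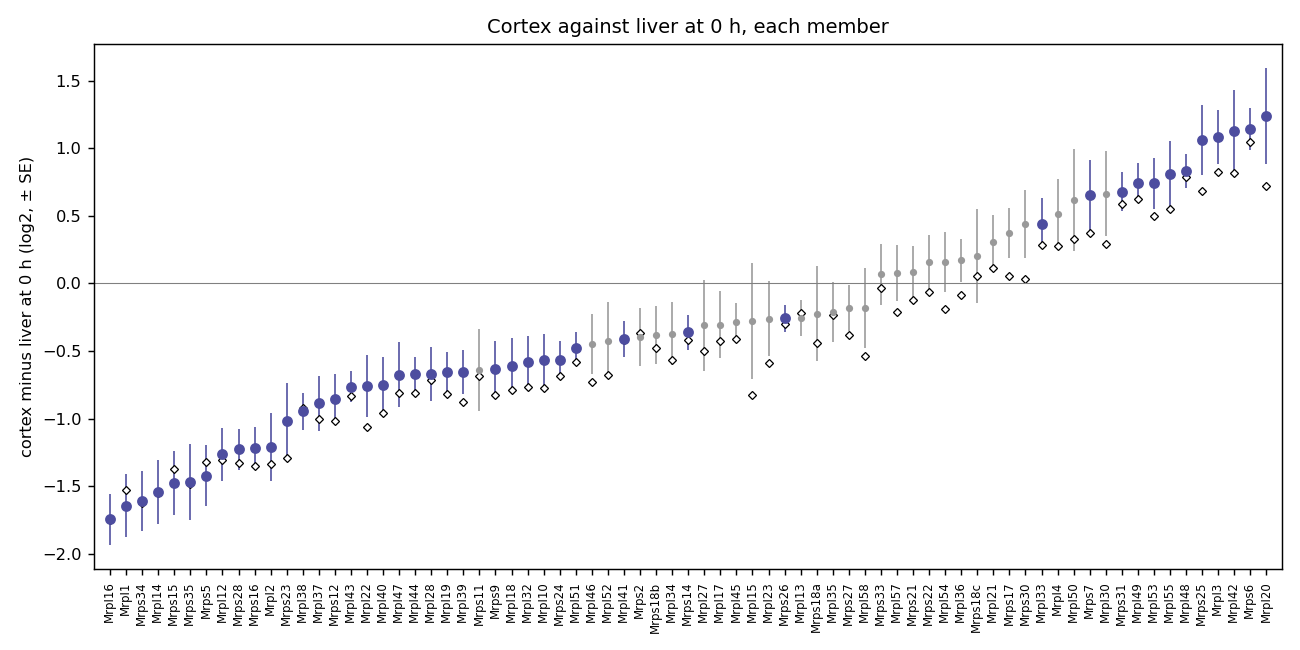
Difference in log2 level between cortex and liver at 0 h for each member with its SE, in order of size; blue points passed limma at an adjusted p under 0.05 and grey points did not. Open diamonds are differences without the arrays that stand apart; the values run from -1.75 for Mrpl16 to 1.24 for Mrpl20.

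As a description over arrays that share normalisation and RNA condition, the correlation of a member with the mean of the others, after removing group means, had a median of 0.35 over 24 cortex arrays and 0.86 over 24 liver arrays. It exceeded 0.5 for 23 and 67 of the 73, against 13.5% and 34.7% of the other genes set against the same mean. Leaving out the arrays that stand apart, the liver median was 0.51 (22 arrays), with 38 members above 0.5 (19.7% of other genes), and the cortex median 0.22 (17 arrays), with 25 above 0.5 (13.8%). The cortex number also leaves out the only remaining array of 18 mg/kg at 48 h, since a group mean needs more than 1 array. In cortex Mrpl13 had the highest value (0.85) and Mrps26 the lowest (-0.60). Genes of other symbols most like the member mean in cortex were Snapc5 (0.90), Uqcc2 (0.88), a complex III assembly factor, Cdc123 (0.88) and Rpl18 (0.88). In liver they were Cct3, Rnaset2, Lipc and Rpl34 (0.99 each), and Rpl24 (0.95) led without the arrays that stand apart.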

How the data were processed

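Biotin-labelled RNA was hybridised to Affymetrix rat genome arrays, and the authors deposited log2 values, made with RMA and Partek per the submitters' processing notes, which give no version. Array distributions still differed (SD over probe sets 1.38 to 2.08 in liver, 2.07 to 2.16 in cortex). Further scaling and a filter on dim probe sets were not applied. Of 31099 probe sets 57 controls were left out. Groups came from the labels. For each tissue limma 3.58.1 (R 4.3.3) fitted a mean for each of 8 groups, later times were compared with 0 h of the same arm, and p-values were adjusted by Benjamini-Hochberg over 31042 probe sets with 0.05 as threshold, two-sided. Slopes on the actin gap were fitted beside the group means, and tissues were compared at 0 h in a fit of all 48 arrays. Models were tested on simulated data. Fold changes are linear. The number of arrays limits precision.

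The members, lists and rules were chosen with earlier results of these data known. Named were members past the threshold (up to 15 a contrast), otherwise the smallest p in each direction, the 6 smallest p in each direction for slope and tissue tests, 11 fixed members, passing genes of other lists and the 10 genes most like the member mean, of which the text prints some. Members singled out for an extreme value or for disagreeing probe sets (Mrpl13, Mrps18c) were chosen after their values were seen. Alternatives covered the scaling, probe set choice, covariates, pooled controls and left-out arrays. Same-numbered arrays did not deviate together in every pair, so the numbers were not used as pairs. Promoters are from RefSeq (GRCr8).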

Additional observations from a re-analysis of the deposited data

Results flagged for a closer look

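In cortex the mean of the members, set against 0 h of its own arm, changed in opposite directions in the dose arms at 4 and 48 h. At 4 h every 3 mg/kg array was above the mean of its 0 h group (group change 0.07) and every 18 mg/kg array below (-0.05), a difference of -0.121. The group means at 4 h were close, 9.47 after 3 mg/kg and 9.48 after 18 mg/kg. Those at 0 h were 9.41 and 9.53, and their part in the difference was not tested. At 48 h the changes were 0.20 and -0.16, a difference of -0.355. The difference of these means was not tested. The actin gap of the same groups, and the median changes with it as a covariate, are given with the cortex results.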

How the results depend on the processing

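All values rest on 3 arrays a group, and 1 array decided several calls. Counts of members that passed were within 1.5 times the main count under the other settings except as follows. In cortex at 24 h after 3 mg/kg, 1 member passed when probe sets below the median mean were dropped (0.264% of those tested). Also 1 passed when each gene kept a single probe set (0.338%), against 0 in the main fit. Keeping only arrays with a gap of at most 3 leaves 1 array at 48 h after 18 mg/kg, so that count is not given. For the cortex slope, 37 of 97 passed with every member probe set counted (26.2% of all probe sets). Without the arrays that stand apart 10 passed (14.1%), against 24 in the main fit. In liver after 3 mg/kg with the actin gap as a covariate, 10, 55 and 54 passed at 4, 24 and 48 h (0, 0 and 11 in the main fit). The shares of all probe sets with this covariate, whose slope rested on 1 array, were 5.71%, 31.5% and 46.5%. At 48 h, 36 passed with the GAPDH gap as a covariate (22.9% of all probe sets) and 7 after quantile normalisation (6 higher, 1 lower, 5.38%). Without the dimmer probe sets 17 passed (18.6% of those tested). With both 0 h groups pooled 0 passed (0%), and without the arrays that stand apart 6 did (4.42%). For the liver slope, where 56 passed in the main fit, 36 passed after quantile normalisation (30 higher, 6 lower, 28.9% of all probe sets). Without the arrays that stand apart 0 passed (0%), with the GAPDH gap 8 (5.38%) and with no group means 35 (24%). The cause was not tested beyond the arrays named. Leaving out 1 array at a time gave 0 to 8 at 48 h after 18 mg/kg in cortex, 0 to 12 for the cortex dose test, 12 to 27 for the cortex slope, 0 to 11, 0 to 24 and 0 to 34 at 4, 24 and 48 h after 3 mg/kg in liver, 0 to 1 for the liver dose test, 0 to 59 for the liver slope and 42 to 49 between tissues. Quantile normalisation lowered the liver median at 48 h after 3 mg/kg to 0.20, and centring each array on its median raised it to 0.82, with all probe sets moving from -0.16 to -0.05 and 0.01. Same-numbered arrays were not shown to be pairs (4 of 18 cortex and 7 of 18 liver correlations were above 0.1). With the replicate number as a block, 14 members passed at 48 h after 3 mg/kg in liver and 24 for the cortex slope. For the liver slope 58 passed, and 0 in every other test within a tissue. Between tissues 41 passed with dose arm and replicate number together as a block, on the 0 h arrays only.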
